A study of Homo sapiens with 21 samples.

Results

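Epithelial chemokine genes were examined in RNA from A549 xenograft tumors, as 10 members of the 60651 genes in the human count table. They are CXCL17, CXCL1, CXCL2, CXCL3, CXCL5, CXCL8, CCL2, CCL20, CCL28 and CXCL16. CXCL17 was chosen by its measured increase in Oxy186-treated tumors r1-r4 over control tumors, and the others were chosen as chemokine genes that epithelial tumor cells express, with results of these tumors already known. All 10 members had reads in every tumor and passed the filter on low counts in every comparison.

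The tumors were grown under the skin of female athymic nu/nu mice, 6-8 weeks old at the start, from A549-Luc2 cells, a human lung adenocarcinoma line that carries luciferase. The groups were 10 mice each, given vehicle (Control), Oxy186 or Oxy210 by mouth every day, both compounds at 50 mg/kg. RNA from 7 tumors per group was sequenced, for 21 libraries in all. The vehicle, which all 3 groups received, held DMSO, ethanol, PEG400 and corn oil, and Oxy186 and Oxy210 are oxysterol analogs. Athymic mice lack mature T cells but retain neutrophils, macrophages and other innate cells, and the study sequenced RNA samples of high integrity. Tumors r1-r4 of the Oxy186 group were picked by the study from a principal component plot of these same libraries. The values and calls of members and of all other genes in r1-r4 against control are therefore a description without a test.

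Chemokines are small secreted proteins that draw leukocytes along a gradient by binding G protein-coupled receptors. CXCL1, CXCL2, CXCL3, CXCL5 and CXCL8 (interleukin 8) act through CXCR2 and recruit neutrophils, CCL2 recruits monocytes through CCR2, and CCL20 recruits CCR6-bearing cells. CXCL17 and CCL28 are chemokines of mucosal surfaces such as the airway, and CXCL16 is made as a membrane protein whose shed form binds CXCR6. In epithelial cells the neutrophil-recruiting genes and CCL20 are classic targets of the transcription factor NF-κB, often together with AP-1.

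The stretch from 100 to 1 bases before the transcription start of 7 members is shown because the neutrophil-recruiting genes share one motif in it. The sequences are those of RefSeq on GRCh38.p14, 5′ to 3′ on the gene's own strand, and capitals mark matches to an NF-κB motif (GG, a purine, any 2 bases, 2 pyrimidines, CC) or a TATA box (TATAAA) on either strand.
CXCL1: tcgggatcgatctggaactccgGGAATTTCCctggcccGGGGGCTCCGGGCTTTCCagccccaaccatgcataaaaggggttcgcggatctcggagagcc
CXCL2: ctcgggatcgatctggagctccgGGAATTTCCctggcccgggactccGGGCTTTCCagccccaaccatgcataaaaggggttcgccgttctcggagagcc
CXCL3: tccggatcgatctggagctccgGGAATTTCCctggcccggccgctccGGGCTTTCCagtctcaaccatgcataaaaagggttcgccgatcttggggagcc
CXCL5: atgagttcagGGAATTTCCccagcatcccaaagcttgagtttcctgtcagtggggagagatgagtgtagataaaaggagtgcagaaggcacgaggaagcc
CXCL8: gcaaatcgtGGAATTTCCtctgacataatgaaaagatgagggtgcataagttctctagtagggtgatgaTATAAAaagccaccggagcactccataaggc
CCL20: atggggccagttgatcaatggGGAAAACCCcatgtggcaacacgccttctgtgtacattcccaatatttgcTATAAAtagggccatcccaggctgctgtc
CXCL17: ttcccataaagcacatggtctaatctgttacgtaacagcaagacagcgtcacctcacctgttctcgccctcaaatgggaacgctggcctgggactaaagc
These lie at chr4:73869293-73869392 (plus strand) for CXCL1, chr4:74099196-74099295 (minus) for CXCL2, chr4:74038690-74038789 (minus) for CXCL3 and chr4:73998678-73998777 (minus) for CXCL5. CXCL8 is at chr4:73740469-73740568 (plus), CCL20 at chr2:227813742-227813841 (plus) and CXCL17 at chr19:42442947-42443046 (minus).

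CXCL1, CXCL2, CXCL3, CXCL5 and CXCL8 all held the same NF-κB match, GGAATTTCC, with its first base between 91 and 77 bases before the start. This exact match, picked after the windows of the members were searched, is in 0.461% of 35116 RefSeq windows that run from 250 bases before to 50 bases after a start. Any NF-κB match is in 32.1% of these windows, an AP-1 match (TGANTCA) in 7.71% and a TATA box in 11.5%. CXCL1, CXCL2 and CXCL3 shared a further match, GGGCTTTCC, 53 bases before the start, and their stretches are near copies of each other. CCL20 held an NF-κB match on the opposite strand 79 bases before the start and a TATA box at 29 bases, where CXCL8 had its TATA box at 31 bases. CXCL8 also held an AP-1 match, TGACTCA, 137 bases before the start. The window of CXCL17 held no NF-κB match of these letters and 1 AP-1 match, TGAGTCA, at base 29 counted from the start as 1, and CCL28 had an NF-κB match in 1 of its windows. CCL2 and CXCL16 had no entry in the table. The matches are a description of letters and say nothing of which factor was bound.

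The 5 neutrophil-recruiting genes lie within one cluster on chromosome 4, from CXCL8 (73740519-73743716, plus strand) and CXCL1 (73869393-73871308, plus) to CXCL5 (73995642-73998677, minus), CXCL3 (74036589-74038807, minus) and CXCL2 (74097040-74099196, minus). CXCL17 is at chromosome 19 (42428278-42442946, minus), CCL20 at chromosome 2 (227805739-227817564, plus) and CCL28 at chromosome 5 (43376645-43412391, minus). CCL2 (34255274-34257208, plus) and CXCL16 (4733533-4739928, minus) are far apart on chromosome 17. These gene bounds are of GENCODE 44 on GRCh38. Some reads of the cluster genes cannot be placed uniquely, since 13.4% of the 50-base stretches of CXCL2 transcripts occur in CXCL1 or CXCL3 as well. The share was 6.01% for CXCL3, 4.57% for CXCL1, 1.17% for CXCL5 and at most 0.753% for every other member, and the 3 most alike genes are uncertain to that extent. Whether the counting used strand is not stated in the sources used here, and 17.3% of the exon bases of CXCL5 overlap the gene ENSG00000287037 and 6.16% of those of CXCL16 overlap MED11 or ZMYND15 on the opposite strand, so that without strand these reads could not be told apart.

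Library depth and cell type markers set the frame for these values. Human gene counts totalled 13818998-17865119 per Control tumor, 14008787-15776682 per Oxy186 tumor and 13787493-15758662 per Oxy210 tumor. The table holds reads assigned to human genes, so the chemokine genes of mouse stroma are not counted in these values. Mouse reads placed on human genes by error were not measured. All 10 epithelial markers (keratins, EPCAM, CDH1 and others) were present, with a summed level of 7244-16053 CPM (reads of a gene per 1000000 human reads) over the 21 tumors. Leukocyte markers summed to 5.42-11.3 CPM, 10 of the 12 never reached 10 reads and S100A8 was at 0 in every tumor. Endothelial markers summed to 1.82-6.74 CPM and fibroblast markers, led by LUM, to 80.2-266 CPM, at 113-237 in Control, 105-266 in r1-r4, 107-159 in r5-r7 and 80.2-157 in Oxy210. A549 cells were the only human cells put into the mice, so these human marker reads are not a measure of mouse stromal cells. Their source was not tested. In bulk tumor RNA, fewer cells with a transcript and less RNA per cell cannot be told apart. Libraries differed in how levels follow the GC content of a gene's exons. This GC slope, in log2 CPM per 10 percentage points of GC, was -0.15 to 0.40 in Control, -0.51 to -0.18 in r1-r4, 0.079 to 0.49 in r5-r7 and -0.33 to 0.26 in Oxy210. All of r1-r4 lay below every Control tumor, though r2 (-0.18) was close to Control r7 (-0.15). Oxy210 r5 (-0.33) lay inside the range of r1-r4. Values with these trends fitted as offsets (GC offsets) are therefore given beside those without.

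CXCL5 was the most abundant member per exon length and CCL28 the least. On the FPKM scale (CPM per kilobase of exon), which allows levels of different genes to be compared, the median over 21 tumors was 259 for CXCL5, an attractant of neutrophils. The range of CXCL5 did not overlap that of CXCL1, the next gene, with a median of 62.6 FPKM. CXCL8 (31.2) and CXCL2 (27.4) followed, and as CXCL8 was the higher of the pair in 13 of 21 tumors their order is not separated. CXCL16 (10.1 FPKM), CCL2 (6.70) and CXCL3 (6.61) formed a middle group in which the neighbours also changed places, with CXCL16 above CCL2 in 15 tumors and CCL2 above CXCL3 in 14. CXCL3 was above CXCL17 in all 21 tumors. CXCL17 (1.81 FPKM), CCL20 (1.21) and CCL28 (0.629) were low, with CXCL17 above CCL20 in 16 tumors and CCL20 above CCL28 in 17. Their order depends on exon length, which joins the exons of all transcripts and is 4524 bases for CCL28. In CPM the median of CCL28 (2.84) was above those of CXCL17 (1.98) and CCL20 (1.93). The 3 genes from CXCL17 down rest on few reads, between 6 and 93 per tumor.

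**Figure D1:**
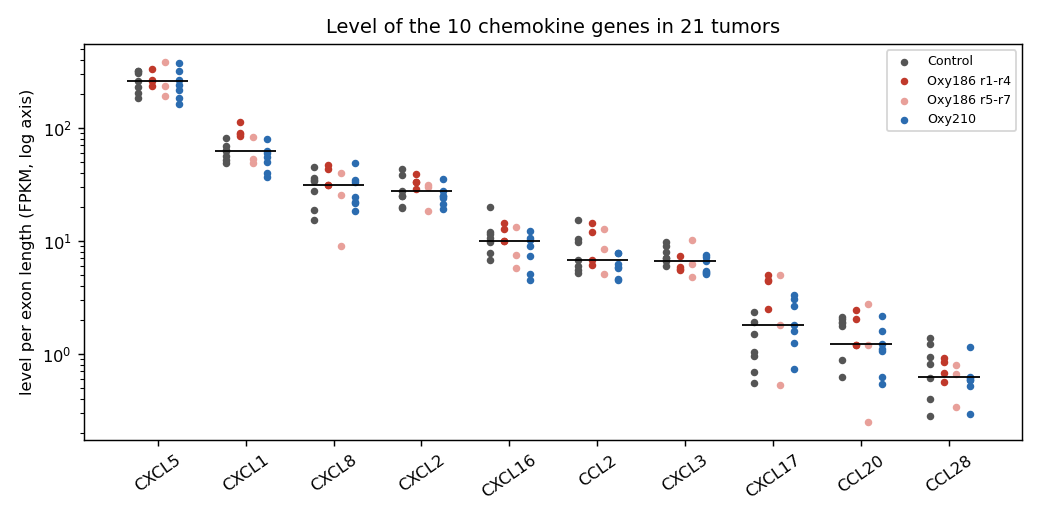
Level of each of the 10 chemokine genes in each of 21 tumors, in FPKM on a log axis, with 1 point per tumor coloured by group and a bar at the median of all tumors. CXCL5 sat at a median of 259 and CCL28 at 0.629, and for most genes the groups overlapped.

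CXCL17, the mucosal chemokine, was higher in CPM in each of Oxy186 tumors r1-r4 than in every Control tumor. Its Control level ran from 0.605 CPM to 2.56 CPM with a median of 1.14. The values of r1, r2, r3 and r4 were 4.84, 2.71, 4.93 and 5.45 CPM, and r2 was just above the highest Control tumor. This was a 3.11-fold higher level (log2 fold change 1.64, SE 0.34, 4 against 7 tumors). With GC offsets the log2 fold change was 1.51, and leaving out any 1 of these tumors gave 1.51-1.85. This is the contrast that chose the gene.

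The Oxy186 tumors not used in choosing CXCL17 were spread over the whole range. CXCL17 was at 5.51 CPM in r5, the highest value of all 21 tumors, at 1.98 CPM in r6, inside the Control range, and at 0.582 CPM in r7, the lowest value of all. The reads behind these values were 85, 30 and 8, and exact Poisson intervals (95%, counting error only) were 4.40-6.82 CPM for r5 and 0.251-1.15 CPM for r7, which do not overlap. Over all 7 Oxy186 tumors the log2 fold change against Control was 1.37 (SE 0.41), also a description since it contains r1-r4.

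The Oxy210 tumors were not used in choosing CXCL17, but the Control tumors they are compared with were, so the difference is not independent of that choice. CXCL17 ran from 0.807 CPM to 3.64 CPM with a median of 1.98, and 3 of 7 tumors were above every Control tumor. The log2 fold change was 0.69 (SE 0.35, 95% interval -0.040 to 1.43), and it did not pass the test across all genes (edgeR's quasi-likelihood test, unadjusted p = 0.0624, Benjamini-Hochberg adjusted p = 0.378). Leaving out any 1 tumor kept the difference between 0.54 and 0.90, and GC offsets gave 0.66. CXCL17 in all Oxy186 tumors was 0.70 higher than in Oxy210 on the log2 scale (SE 0.41), a description since 4 of these 7 tumors are r1-r4.

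**Figure D2:**
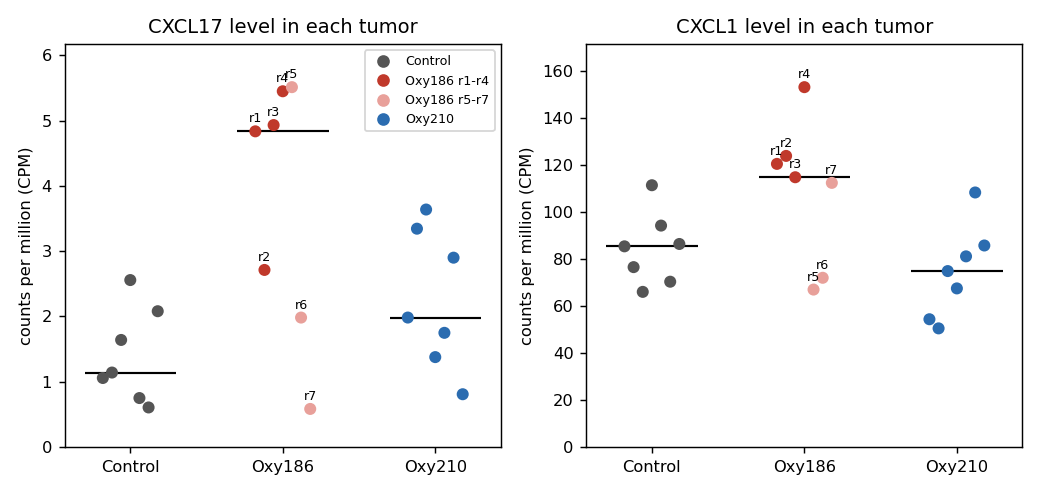
CXCL17 (left) and CXCL1 (right) in CPM in each tumor of the Control, Oxy186 and Oxy210 groups, with a bar at the group median and the Oxy186 tumors labelled by replicate. For both genes r1-r4 lay above all Control tumors in CPM, though not with GC trends removed. Tumors r5, r6 and r7 differed between the genes: r5 was high for CXCL17 (5.51) and low for CXCL1 (66.9).

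CXCL1, a neutrophil attractant, was the other member whose r1-r4 values in CPM did not overlap Control. It ran from 65.9 to 111 CPM in Control tumors (median 85.3) and was 120, 124, 115 and 153 CPM in r1, r2, r3 and r4. The log2 fold change was 0.56 (SE 0.15) and 0.42 with GC offsets, where its adjusted p by edgeR rose above 0.05 (0.110). With the GC trend of each library removed the groups overlapped. Tumors r1 (6.81 log2 CPM) and r3 (6.63) then lay below Control r4 (6.83), and r2 (6.85) and r4 (7.10) above it. In r5, r6 and r7 CXCL1 was 66.9, 71.9 and 112 CPM, so r5, the tumor with the most CXCL17, had CXCL1 near the bottom of the Control range. In Oxy210 tumors CXCL1 ran from 50.4 to 108 CPM (median 74.8).

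The other neutrophil attractants overlapped Control in r1-r4. CXCL2 was 27.5-60.0 CPM in Control and 55.0, 40.3, 46.7 and 46.4 CPM in r1-r4 (log2 fold change 0.21). CXCL3 was 13.3-21.5 CPM in Control and 13.0, 12.5, 12.3 and 16.3 CPM in r1-r4, where 3 of the 4 were below every Control tumor (log2 fold change -0.36). CXCL1 and CXCL3, whose promoter stretches are near copies, thus had opposite signs in these tumors. CXCL5 was 452-775 CPM in Control and 643, 630, 575 and 813 CPM in r1-r4 (0.034, and -0.22 with GC offsets). CXCL8 was 39.8-116 CPM in Control and 112, 80.8, 80.5 and 121 CPM in r1-r4 (0.31, and 0.045 with GC offsets).

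The remaining members, which attract monocytes and lymphocytes, were also within or across the Control range. CCL2 was 10.1-29.8 CPM in Control and 11.8, 13.0, 27.7 and 23.0 CPM in r1-r4, a split of 2 low and 2 high tumors (log2 fold change 0.17). CCL20 was 0.985-3.37 CPM in Control and 1.92, 1.91, 3.22 and 3.91 CPM in r1-r4 (0.071, and -0.20 with GC offsets). CCL28 was 1.28-6.23 CPM in Control, a 4.88-fold range, and 2.54, 3.08, 3.79 and 4.17 CPM in r1-r4 (-0.14). CXCL16 was 18.8-55.3 CPM in Control and 28.1, 28.0, 35.4 and 39.8 CPM in r1-r4 (0.036, and 0.57 with GC offsets). The gene with the most GC-rich exons of the 10 (CXCL16, 57.1%) thus moved up, and the genes with the most GC-poor exons (CXCL8 at 31.6%, CCL20 at 35.4% and CXCL5 at 37.1%) moved down when the GC trends were fitted. These directions follow largely from the fit by construction, since r1-r4 had lower GC slopes than every Control tumor.

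Counted against all genes, the members gave few calls in r1-r4. A fold change over 2 with an adjusted p at or under 0.05 (edgeR) was reached by 1 member, CXCL17, where 0.214% of 16852 tested genes were called higher. An adjusted p at or under 0.05 alone was reached by 2 members, CXCL17 and CXCL1, where 19.7% of all genes reached it in either direction. CXCL1 no longer did with GC offsets, with a replicate block (adjusted p = 0.058 by edgeR) or without Oxy186 r4. In CPM, both were also the 2 members whose groups did not overlap with r1-r4 higher, as for 4.33% of all genes. With GC trends removed r1-r4 overlapped Control for both. As this contrast chose CXCL17, nothing is read from these counts. The median log2 fold change was 0.12 for the 10 members and 0.0060 for all genes.

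In all 7 Oxy186 tumors against Control, no member passed an adjusted p of 0.05, and neither did any other gene (0% of 16291 by edgeR, and 0 by DESeq2 and by limma voom). Of the 9 members other than CXCL17, whose choice rests on 4 of these tumors and on the Control tumors, 0 had an unadjusted p under 0.05, where 3.79% of all genes had one. The largest difference among the 9 was that of CXCL1, 0.34 on the log2 scale (interval -0.025 to 0.70), and the others lay between -0.28 for CCL28 and 0.11 for CCL2. The intervals of these 9 all included 0, and those of CCL20 (-0.87 to 0.76) and CCL28 (-0.95 to 0.40) were the widest of these.

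In Oxy210 tumors against Control, 9 of the 10 members were below 0, and CXCL17 was the exception. Of all genes 51.3% were above 0. The median log2 fold change was -0.24 for the members and 0.0086 for all genes. No member passed an adjusted p of 0.05 (edgeR, 0% of 16396 genes). DESeq2 gave one to 92 genes, of which 0 were members, and limma voom to 0. By edgeR 1 member had an unadjusted p under 0.05 in the lower direction, where 8.12% of all genes did. That member was CXCL3, at 13.3-21.5 CPM (median 15.7) in Control and 11.4-16.7 CPM (median 12.0) in Oxy210, with 4 of 7 Oxy210 tumors below every Control tumor. Its log2 fold change was -0.32 (SE 0.14, interval -0.61 to -0.034, adjusted p = 0.324 by edgeR). CCL2, the monocyte attractant, had a median of 13.0 CPM in Control and 11.4 CPM in Oxy210, and its highest Oxy210 tumor (15.1 CPM) was far under its highest Control tumor (29.8 CPM). Its log2 fold change was -0.47 (interval -0.94 to 0.0069, adjusted p = 0.366 by edgeR). CCL20 (-0.42), CXCL16 (-0.40) and CCL28 (-0.36) had differences of like size with wider intervals, and CXCL1 (-0.17), CXCL2 (-0.16), CXCL8 (-0.039) and CXCL5 (-0.036) smaller ones.

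The 2 compounds were given at the same dose, and all 10 members were higher on average in Oxy186 than in Oxy210 tumors. Of all genes 48.5% were above 0. The median log2 fold change was 0.28 for the members and -0.0068 for all genes. Both the count of 10 and the median include CXCL17, whose choice rests on 4 of the 7 Oxy186 tumors. No member, and no gene, reached an adjusted p at or under 0.05 (edgeR, 0% of 16361 genes), and DESeq2 gave one to 3 genes, of which 0 were members. An unadjusted p under 0.05 in the higher direction was reached by 2 members, CXCL1 and CCL2, where 3.14% of all genes did. CXCL1 had a median of 115 CPM in Oxy186 and 74.8 CPM in Oxy210, with 5 of 7 Oxy186 tumors above every Oxy210 tumor (log2 fold change 0.53, SE 0.19, interval 0.13 to 0.93, unadjusted p = 0.0121, adjusted p = 1.00 by edgeR). CCL2 had a median of 16.3 CPM in Oxy186 and 11.4 CPM in Oxy210, with 4 of 7 Oxy186 tumors above every Oxy210 tumor (0.61, SE 0.23, interval 0.12 to 1.09, unadjusted p = 0.0175, adjusted p = 1.00 by edgeR). For the other members apart from CXCL17 the intervals of the difference included 0, the narrowest being that of CXCL2 (0.26, -0.069 to 0.59) and the widest that of CCL20 (0.40, -0.44 to 1.25). For CXCL3 (interval -0.26 to 0.45) and CXCL5 (-0.30 to 0.49) the difference was small and its interval ran to both sides of 0. These 3 comparisons share tumors and are not independent of each other. The p-values measure the spread between tumors of one transplanted line.

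**Figure D3:**
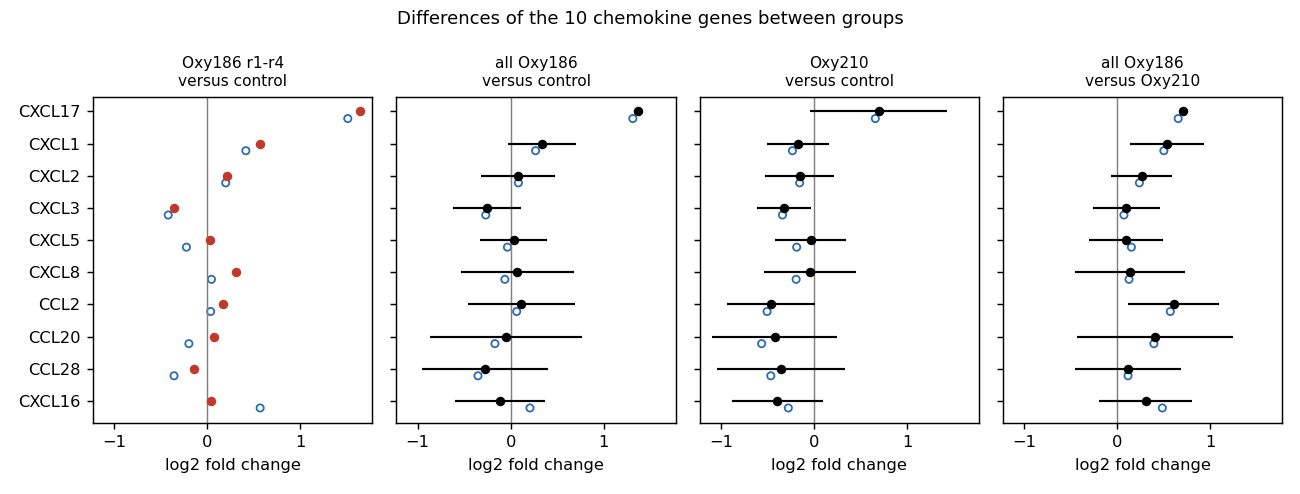
Log2 fold changes of the 10 members in 4 comparisons, with filled points from the fit without and open blue points from the fit with GC offsets, and lines for 95% intervals. The r1-r4 panel, and CXCL17 wherever r1-r4 are included, carry no intervals since those tumors and that gene were picked on these data. All 10 filled points of the Oxy186 versus Oxy210 panel lay above 0, where 48.5% of all genes did, and these 10 include CXCL17. In the Oxy210 versus control panel 9 of 10 lay below 0, where 51.3% of all genes lay above it.

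CXCL8 and CCL20 varied together from tumor to tumor. After removal of the group means, Pearson's r over the 21 tumors was 0.90 (permutation p = 3e-05, adjusted over 45 pairs p = 0.00135) and Spearman's rho 0.80 (permutation p = 6e-05, adjusted p = 0.0027). It was 0.77 without the 2 tumors farthest from the median of CXCL8, and 0.81 without Oxy186 r6, the tumor lowest for both genes. Within the groups r was 0.95 in Control, 0.90 in Oxy186 and 0.81 in Oxy210, and it was 0.82 with the GC trend of each library removed. CCL20 held 6-68 reads per tumor, so a part of its spread is counting error.

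**Figure D4:**
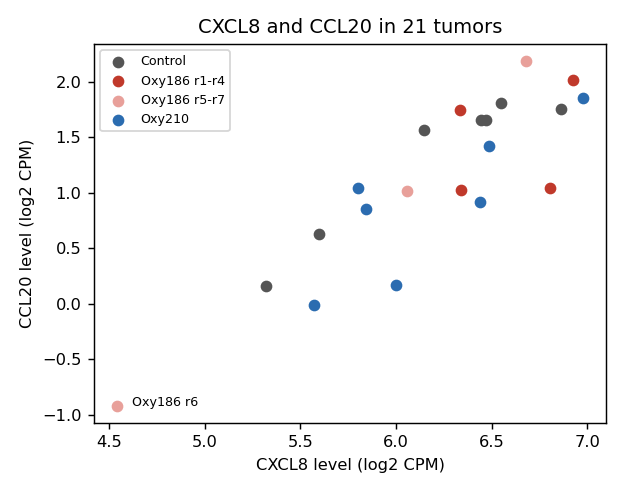
CCL20 against CXCL8 in each of 21 tumors, both in log2 CPM, coloured by group. The points of all groups follow one rising line, with Oxy186 r6 at its lower end (CXCL8 at 4.54 and CCL20 at -0.92).

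Of the 45 pairs, 1 other passed by Pearson's r, CXCL2 with CXCL8 (r = 0.74, permutation p = 0.0005, adjusted p = 0.0112, rho = 0.62, adjusted p = 0.0497). It was 0.60 without the 2 tumors farthest from the median of CXCL2 and 0.78 with the GC trends removed. Without Oxy186 r6 it was 0.63 and no longer passed (adjusted permutation p = 0.197), so the call rests on that tumor. By Spearman's rho alone, CXCL8 also passed with CXCL1 (rho = 0.67, adjusted permutation p = 0.0378, r = 0.59, adjusted permutation p = 0.0752) and with CXCL3 (rho = 0.66, adjusted permutation p = 0.0378, r = 0.54, adjusted permutation p = 0.121). The 10 pairs among the 5 neutrophil attractants had r between 0.10 (CXCL2 with CXCL5) and 0.74. CXCL16 ran against CXCL5 (r = -0.61, adjusted permutation p = 0.0752), short of the threshold. CXCL17 had no pair that passed, its highest r being 0.45 with CXCL2 (adjusted permutation p = 0.139) and its lowest -0.35 with CXCL5.

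**Figure D5:**
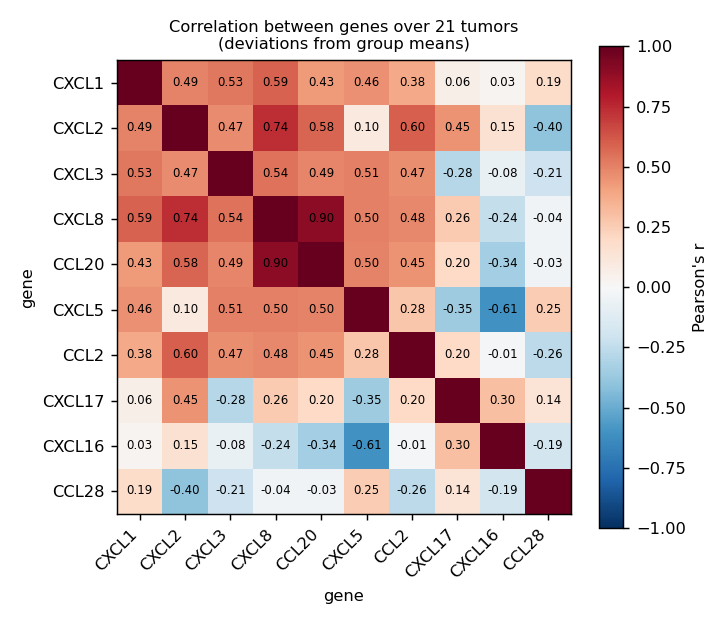
Pearson's r between the 10 members over 21 tumors in log2 CPM, with the group means removed, printed in each cell and coloured from -1 (blue) to 1 (red). CXCL8 with CCL20 (0.90) and CXCL2 with CXCL8 (0.74) stood highest, and CXCL17, CXCL16 and CCL28 had low or negative values with most genes.

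The GC slope of the libraries moved with several members within the groups, and 3 of them, those with the most GC-poor exons, passed by Pearson's r. The slope is itself fitted to gene levels against exon GC, so GC-poor genes tend to run against it by construction. Other genes of like GC content were not tested, and the values below are a description of these members. For CXCL8 r with the slope was -0.74 (permutation p = 0.00058, adjusted over 10 members p = 0.0058) and rho -0.59 (permutation p = 0.00865, adjusted p = 0.0552). For CCL20 r was -0.71 (permutation p = 0.00149, adjusted p = 0.00745) and rho -0.58 (permutation p = 0.0166, adjusted p = 0.0552), and for CXCL5 r was -0.56 (permutation p = 0.00953, adjusted p = 0.0318) and rho -0.56 (permutation p = 0.0136, adjusted p = 0.0552). Leaving out the 2 tumors with the slopes most distant from the median gave r = -0.66, -0.55 and -0.60 for these genes. CXCL1, with 44.9% GC, had an r as large as that of CXCL5 (-0.56, adjusted permutation p = 0.0542, rho = -0.54). CXCL16 had r = 0.21 (adjusted permutation p = 0.420), and without r1-r4 it was 0.76 (adjusted permutation p = 0.0043). For CXCL17, whose exons hold 45.7% GC, r was -0.26 (adjusted permutation p = 0.420, rho = -0.12) and 0.14 without r1-r4. The part of the slope in the levels of these genes was not tested beyond the fits with GC offsets.

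The genes whose level was most like that of CXCL17 over the 21 tumors, among 13607 genes whose mean log2 CPM was 1 or more, were UGT2B15 (r = 0.84), SERPINA1 (0.83), GBP1 (0.79), TNFSF10 (0.79) and ANKDD1B (0.78). UGT2B15 is a steroid-conjugating enzyme, SERPINA1 the secreted protease inhibitor alpha-1 antitrypsin, GBP1 an interferon-inducible GTPase and TNFSF10 the death ligand TRAIL. With the GC trend of each library removed r was 0.80, 0.84, 0.76, 0.78 and 0.75 in the same order, and SERPINA1 then ranked first. These are a description over libraries that share depth and GC slope, with the groups not removed.

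The other chemokine ligands mostly gave few or no counted reads in these tumors. Of 36 in the table, 29 never reached 10 reads and 10 had no read in any tumor. Those with the highest mean levels per length were CX3CL1, the membrane-bound chemokine of CX3CR1 (10.4-76.6 CPM), PPBP (1.49-16.9 CPM) and PF4 (0.705-5.82 CPM), known from platelets, and CCL24 (0.756-5.25 CPM), an eosinophil attractant. CCL26 reached 11.3 CPM in a Control tumor, with a median of 0.275 CPM over all tumors. In r1-r4 against Control, 2 of 5 tested were called lower, CX3CL1 (log2 fold change -1.35, and -0.96 with GC offsets) and CCL24 (-1.01 and -0.87), while 8.13% of all genes were called lower. With GC offsets CX3CL1 still passed an adjusted p of 0.05 by edgeR and CCL24 did not (adjusted p = 0.173). CX3CL1 was 26.7-58.5 CPM in Control and 26.5-76.6 CPM in r5-r7. Here and in the lists below, calls in r1-r4 are a description without a test, since these tumors were picked on these libraries.

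The receptors of the members, apart from GPR35, were low or near the floor of the measurement. The counts are of human genes, so they are no measure of receptors on mouse leukocytes. CXCR1 and CCR2 had no read in any tumor, where 3 reads correspond to 0.168-0.218 CPM, and CXCR2, CCR6, CXCR6 and CCR3 never had more than 5 reads. GPR35, which has been proposed as a receptor of CXCL17, a matter still disputed, was the best expressed (3.97-27.0 CPM). CCR10, a receptor of CCL28, had at most 21 reads. Both were called lower in r1-r4 (-1.29 for GPR35 and -2.46 for CCR10), the only 2 of 6 tested receptors, beside 8.13% of all genes. With GC offsets their differences were -0.57 and -1.33, and neither passed an adjusted p of 0.05. The other named receptors did not pass: CCRL2, a chemerin-binding receptor (0.26), CCR7 (0.55) and the scavenger ACKR3 (-0.53). Of the 24 receptors 17 never reached 10 reads.

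Other genes known to respond to NF-κB gave more values below than above Control in r1-r4, again a description without a test. Of 26 tested, 7 passed an adjusted p of 0.05 in the lower direction and 0 in the higher direction in these tumors (edgeR, with 9 lower and 0 higher at an unadjusted p under 0.05), beside 15.0% and 4.73% of all genes. The 4 called lower, beside 8.13% of all genes, were TNFAIP2 (-1.25), BCL3 (-1.17), LIF (-1.19) and MMP9 (-1.35). None of these 4 passed with GC offsets. The most abundant others, among genes with an exon length here (SOD2 has none), were IER3 (0.19), PTGS2, the inducible prostaglandin synthase (0.23), and LCN2, lipocalin 2 (-0.23). With GC offsets 2 passed an adjusted p of 0.05 in the higher direction, IER3 (0.78) and RELB (0.64, named after its value was seen), and 0 in the lower direction, and the median moved from -0.32 to -0.043. Of 29 tested genes upstream of the chemokines, 7 passed an adjusted p of 0.05 in the lower direction and 1 in the higher direction (IL1R1, an interleukin 1 receptor, 0.54, named after its value was seen). Called lower were 4, the interleukin 17 receptor chains IL17RC (-1.34, and -0.64 with GC offsets) and IL17RE (-1.54 and -0.98), the NF-κB subunit RELA (-1.03 and -0.44) and CEBPB (-1.21 and 0.054), of which IL17RC and IL17RE still passed with GC offsets. The most abundant others were TNFRSF1A, a receptor of TNF (-0.22), the kinase IRAK1 (-0.84) and CEBPD (-0.44, and 0.90 with GC offsets). Of these, IRAK1 passed an adjusted p of 0.05 by edgeR only without GC offsets and CEBPD only with them.

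The counts of genes called lower in r1-r4 in this paragraph stand beside 8.13% of all genes called lower there. Of 14 tested genes that process or hold chemokines or regulate their RNA, MMP14 (-1.12, and -0.46 with GC offsets) and ZFP36L2 (-1.04 and -0.75) were called lower in r1-r4. With GC offsets ZFP36L2 still passed an adjusted p of 0.05 by edgeR and MMP14 did not. The most abundant were MMP7 (-0.15), the syndecans SDC1 (-0.77) and SDC4 (-0.49), which carry heparan sulfate, and ZFP36L1 (0.18). Of these, SDC1 passed an adjusted p of 0.05 by edgeR, but not with GC offsets. Of 13 tested airway secretory genes 2 were called lower, the mucin MUC1 (-1.76, and -1.09 with GC offsets) and the goblet cell factor SPDEF (-1.72 and -0.54), of which MUC1 still passed with GC offsets. AGR2 (-0.021), SLPI (0.15), TFF3 (-0.34) and MUC5AC (-1.13) were the most abundant and did not pass. None of the 13 was called higher, where 0.214% of all genes were. Of the 10 epithelial markers CLDN4 (-1.12, and -0.62 with GC offsets) and CLDN7 (-1.29 and -0.54), both tight junction claudins, were called lower in r1-r4, CLDN4 still passing with GC offsets, and KRT8 (-0.44), KRT18 (0.25), KRT7 (-0.28) and KRT19 (-0.32) were the most abundant. None of the 2 leukocyte, 2 endothelial and 5 fibroblast markers tested there passed an adjusted p of 0.05 by edgeR, and 1 of each was lower at an unadjusted p under 0.05. For the other 3 comparisons, 6 lists were counted together, without the marker lists. These were the other ligands, the receptors, and the NF-κB response, upstream, processing and airway secretory genes. None of their 86-87 tested genes passed an adjusted p of 0.05 by edgeR. At an unadjusted p under 0.05 by edgeR, 13 were lower in all Oxy186 tumors and 18 lower in Oxy210, beside 2.36% and 8.12% of all genes. In Oxy186 against Oxy210, 4 were higher, beside 3.14%. DESeq2 gave an adjusted p at or under 0.05 to 1 gene of these 6 lists, MUC1 in Oxy210, and limma voom to 0.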

How the data were processed

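The authors trimmed reads with Trimmomatic 0.39, aligned them with STAR 2.7.6a to the combined human (GRCh38.p13, GENCODE 37) and mouse (GRCm39, GENCODE M26) genomes, kept human alignments and counted uniquely aligned reads per gene with featureCounts of Subread 2.0.1. The strand setting is not given in the sources used here. The authors deposited raw counts for 21 tumors and log2 CPM, made with edgeR's filterByExpr and TMM, for Control and Oxy186 r1-r4. Recomputed log2 CPM (prior count 2) matched the deposited log2 values.

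Raw counts were tested with edgeR 4.0.16 (glmQLFit and glmQLFTest) after filterByExpr and TMM, in R 4.3.3, with Benjamini-Hochberg adjustment over all tested genes. Genes were called where the fold change exceeded 2 and the adjusted p was 0.05 or less. FPKM used GENCODE 44 union exon lengths. GC trends were splines with 4 degrees of freedom per library, fitted over genes whose mean log2 CPM was 1 or more. Correlations used 100000 two-sided permutations of tumors within groups. The fits were tested on simulated counts with planted changes. Alternatives were DESeq2 1.42.0, limma voom 3.58.1, RLE, no filter, all libraries in one fit, GC offsets, a replicate block and leaving out each tumor.

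The members and the lists were chosen with earlier results of these data known. From each list the text names the 4 genes with the highest mean level per length and every called gene, at most 6 changed genes a list. No 2 libraries of the same group agreed within sampling noise. Replicate numbers did not pair tumors across groups.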

Additional observations from a re-analysis of the deposited data

Results flagged for a closer look

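Oxy186 tumor r6 lay below the other 6 tumors of its group for 3 members, by a gap large for the range of the group (Dixon's 95% criterion): CXCL2 at 4.69 log2 CPM, CXCL8 at 4.54 log2 CPM and CCL20 at -0.92 log2 CPM. In CPM these are 25.7, 23.2 and 0.396, the last from 6 reads. Tumor r6 was also the lowest of its group for CXCL3 (10.7 CPM), CXCL5 (468 CPM) and CCL2 (9.91 CPM), CXCL1 (71.9 CPM) was in the lower part, and CXCL16 (37.1 CPM) was in the upper part. Of 30 sets of 1 gene in 1 group examined, chance alone flags about 1.5. Without r6 the log2 fold change of all Oxy186 tumors against Control was 0.26 for CXCL8, 0.19 for CXCL2 and 0.16 for CCL20, in place of 0.072, 0.080 and -0.053. The GC slope of this library, 0.49, was the highest of all 21, and its part in these values was not tested beyond the fits with GC offsets.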

How the results depend on the processing

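For the number of called genes, GC offsets gave 202 in r1-r4 against Control in place of 1406, and a replicate block with GC offsets 62 with 0 members. The block alone gave 1635. For Oxy210 against Control the number was 0, and 7 without a filter, 22 with DESeq2 and 1 with a replicate block. For Oxy186 against Oxy210 it was 0, and 1 each without a filter, with all 21 libraries in one fit, with GC offsets and with a replicate block and GC offsets. The number of correlated pairs was 2, and 5 without r1-r4 and 1 without Oxy186 r6, a check chosen after seeing the data. Replicate numbers were the labels' own, and tumors with the same number had correlations of -0.40 to 0.33, so the block stood for no shared animal. CXCL17 in r1-r4 had a log2 fold change of 1.32 with block and GC offsets (adjusted p above 0.05), and CXCL1 lost its adjusted p with GC offsets (0.42), the block (0.56), both (0.39) and without Oxy186 r4 (0.50).

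Signs that changed were of small differences. In r1-r4 these were CCL28 with limma voom (0.014), CXCL5 (-0.22) and CCL20 (-0.20) with GC offsets and CXCL5 with block and GC offsets (-0.18). In all Oxy186 tumors GC offsets gave -0.034 for CXCL5, -0.062 for CXCL8 and 0.21 for CXCL16, and with the block -0.064, -0.067 and 0.15. The cause was not tested. Leaving out 1 tumor gave 997-1614 calls in r1-r4, and changed signs for CXCL5 (-0.047 to 0.096), CCL2 (-0.074 to 0.39), CCL20 (-0.13 to 0.22), CCL28 (-0.29 to 0.036) and CXCL16 (-0.057 to 0.23) there. In all Oxy186 tumors it did so for CXCL5 (-0.078 to 0.12), CXCL8 (-0.040 to 0.26), CCL2 (-0.0077 to 0.32), CCL20 (-0.23 to 0.16) and CXCL16 (-0.18 to 0.10). In Oxy210 it did so for CXCL5 (-0.17 to 0.044) and CXCL8 (-0.22 to 0.076), and between the compounds for CXCL3 (-0.035 to 0.17) and CCL28 (-0.0052 to 0.34). With 6-93 reads per tumor, counting error limits CXCL17, CCL20 and CCL28.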
